A study of Mus musculus with 18 samples.

Results

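The cytosolic ribosome is built from a small subunit, which binds the mRNA and reads its codons, and a large subunit, which joins the amino acids. Each holds ribosomal RNA and a fixed set of ribosomal proteins, most of them in a single copy, so a cell has to make these proteins in step. In neurons ribosomes lie in the cell body and in dendrites, and the mRNAs of ribosomal proteins are among the most abundant of any tissue. The genes described here are the protein-coding rows whose symbol is Rpl or Rps with a number and at most 1 further letter (a, x or l), Rplp0, Rplp1, Rplp2 or Rpsa. By this rule 80 of 37980 rows were members, 48 of the large and 32 of the small subunit, and they lay on 19 chromosomes, 4 of them on chromosome X.

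RNA of the nucleus accumbens, the ventral part of the striatum, was sequenced in 18 samples from mice with a C57BL/6 background, in 6 groups of 3, and the series' design text describes the samples of a group as biological replicates. The genotype labels are Rgs9-2WT and Rgs9-2KO. Mice of each were naive or were given a spared nerve injury (SNI), a lesion of the sciatic nerve's branches that leaves lasting neuropathic pain. Injured mice were given either saline or desipramine, a tricyclic antidepressant, at 15 mg/kg. Both were given intraperitoneally 2 times a day, and the labels name no injection in naive mice. Rgs9-2 is the striatal form of a regulator of G protein signalling, and the study was designed to find its part in gene regulation under neuropathic pain and antidepressant treatment. The labels do not say which cells lost Rgs9-2, nor whether tissue of several mice was pooled.

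The authors deposited 7 tables, each comparing 1 pair of groups. Each gives 1 level per gene and group as FPKM, a read count per length of transcript and per sequenced total. The levels are scaled within each table, so values of the same group differ slightly between tables. No value of a single sample is given, so the spread within a group is seen only through the authors' test. Standard errors, printed after ±, were worked out from the deposited test statistics. A gene is called where the authors' q, the adjusted p of the program Cuffdiff, is at or below 0.05. Sequencing depth is unknown. By the lane numbers in the sample titles 0 of 6 lanes held more than 1 group, so effects of lane and of condition cannot be told apart.

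Rgs9, the targeted gene, went against its label. In naive mice of the authors' deposited tables its level was 120.3 FPKM under the wild-type label and 217 FPKM under the knockout label, and all 3 comparisons of genotype called it higher under the knockout label (log2 fold changes 0.85 ± 0.42, 0.77 ± 0.27 and 0.55 ± 0.19, with q of 0.0443, 0.0170 and 0.00818). An FPKM over the whole gene leaves out whether the deleted stretch was read, and the groups are named below by their labels. Markers of medium spiny neurons, the main cells of the nucleus accumbens, were present in every group: 14 of 15 listed were found, 0 of them at 0 FPKM, with summed levels of 2836 to 4469 FPKM.

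In the members, naive mice labelled wild type stood apart. Of the 80 members 69 had their highest level in that group. The share of all genes highest in that group was not worked out, nor were the ratios below over all genes. That group's FPKM summed over all genes was also the highest, 648632 and 660678 against 521317 to 543240 in the other groups. The members' share of the summed FPKM there was 1.19 times the mean share in the other groups. Over the 77 with at least 10 FPKM in every group, the median ratio of that group to the mean of the other 5 was 1.38, from 0.783 to 2.17, the highest being Rpl37a. Among the other 5 groups the highest level of a member was a median of 1.09 times its lowest, and at most 1.18 times (Rpl27a). Each result below that rests on this group is therefore given beside the comparisons that do not use it. The 2 tables that hold it are naive mice by genotype label and injury in mice labelled wild type, and because they share it their results are not independent.

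**Figure D1:**
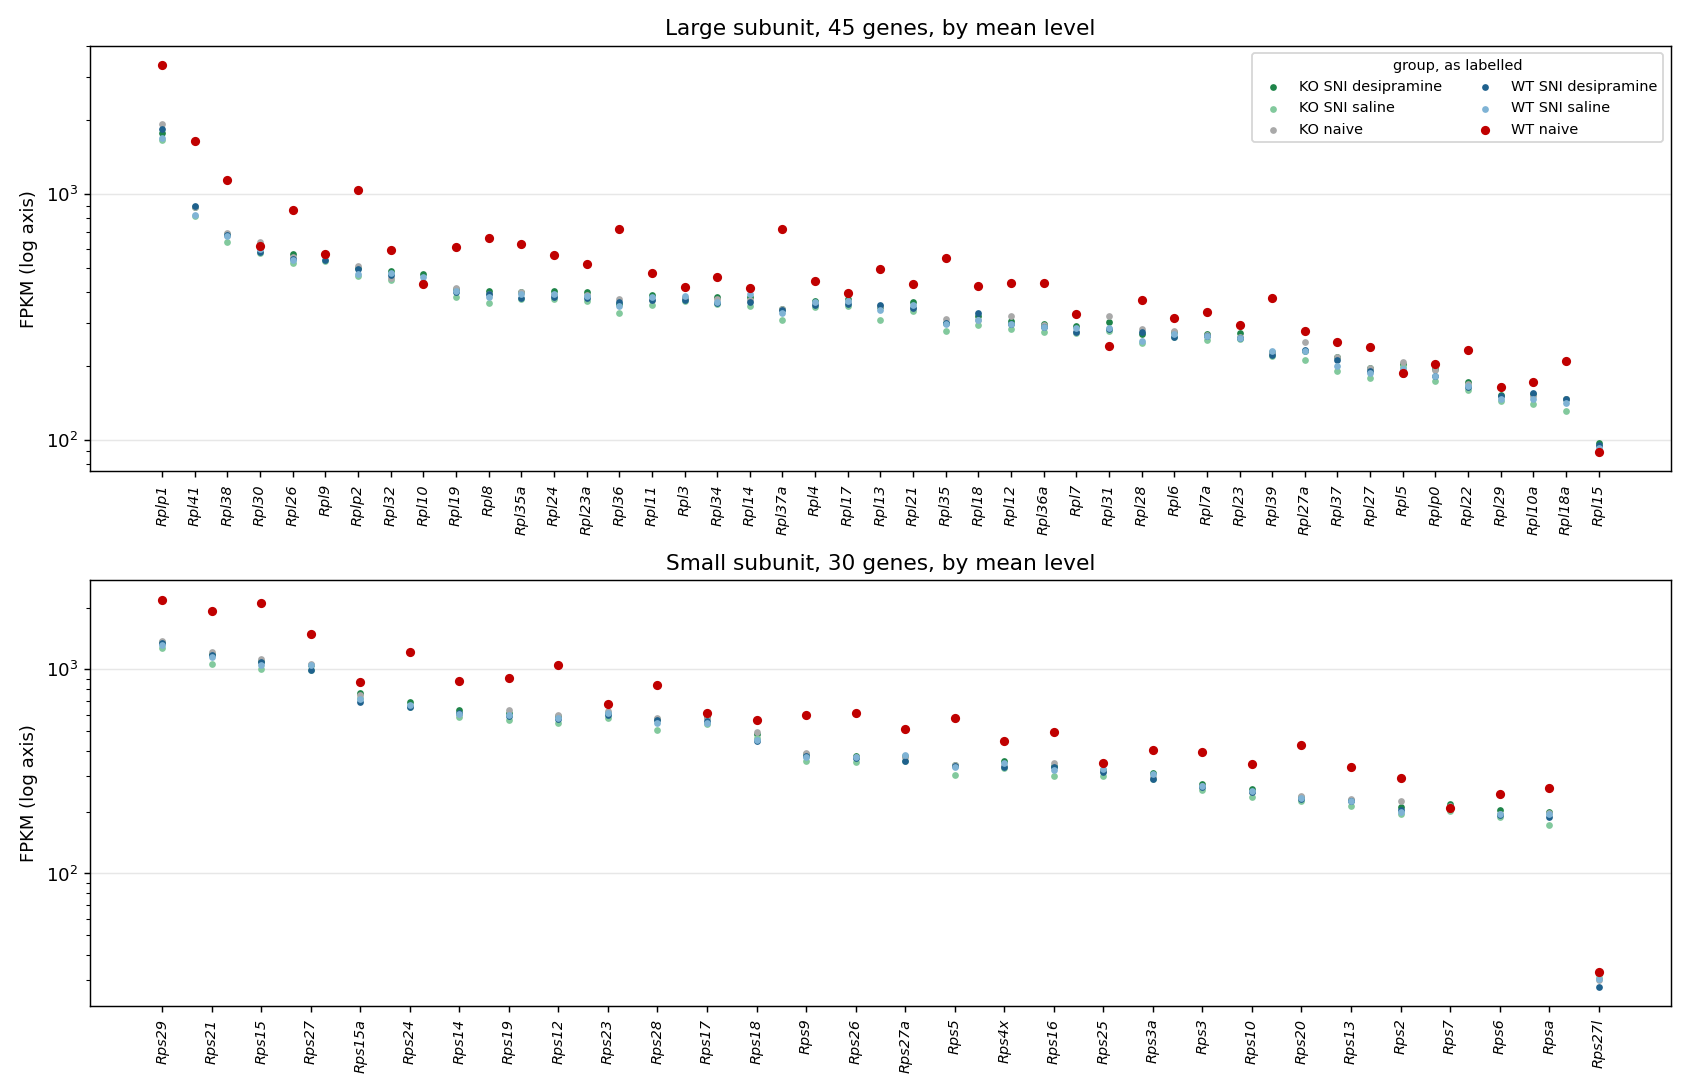
FPKM on a log axis for each ribosomal protein gene with a mean of at least 10 FPKM, large subunit above and small subunit below, ordered by mean level; each point is the authors' value for 1 of the 6 groups on a common scale, with no error since no sample values are given. The naive group labelled wild type (red) lies above the other groups for most genes, while Rpl31 has it below the others. The plot leaves out 2 of the 77 genes.

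Levels covered a wide range. On the scale common to the authors' deposited tables, the highest mean over the 6 groups was that of Rplp1, at 1972 FPKM, a protein of the flexible stalk of the large subunit that recruits the elongation factors. Rps29 followed with 1448 FPKM, Rps21 with 1259 FPKM, Rps15 with 1199 FPKM and Rps27 with 1093 FPKM. These are small proteins of the small subunit, and Rps15 reaches towards the decoding site. Without sample values it cannot be said which neighbours in this order differ beyond their spread. The 10 highest members made up 35.5% of the members' summed FPKM in naive mice labelled wild type and 30.5 to 31.3% in the other groups.

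The lowest levels belonged to paralogs known from other tissues. Rpl10l, a copy of Rpl10 known from testis, was listed at 0 FPKM in every table. Rpl39l, the testis copy of Rpl39, had 0.0402 to 0.120 FPKM over the groups on the scale common to the authors' deposited tables. Rpl39l was not tested. Rpl3l, the paralog of Rpl3 of heart and skeletal muscle, had 0.407 to 0.708 FPKM. Its parent Rpl3 had 367 to 418 FPKM, Rpl10 had 430.3 to 475 FPKM and Rpl39 had 220.3 to 378 FPKM. Rps27l, a paralog of Rps27 known as a target of p53, was the exception with 27.9 to 32.8 FPKM, against 987 to 1483 FPKM for Rps27. Among markers of muscle and testis, 5 of 5 were found in each list, with summed levels of 6.31 to 9.75 FPKM for muscle and 0.270 to 0.506 FPKM for testis, where Akap4 was at 0 in every group. The next lowest member, Rpl15, a core protein of the large subunit, had 89.5 to 97.3 FPKM.

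The remaining ribosomal proteins have symbols the rule does not match. The row of Rpl13a combines it with Flt3l in the authors' deposited tables, at 1381 to 2267 FPKM, and is not a member. A further 6 were found of the 11 symbols listed. The 11 include Rps3a, itself a member, and alternative names of the same gene, so the others are not all missing proteins. Among the 6 were Fau, a ubiquitin-like protein joined to a small subunit protein, and Gnb2l1, the scaffold now called Rack1. Their fold changes are given with those of the members below.

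Some of the members share a sequence feature that the rule did not use. Many ribosomal protein mRNAs begin with a C followed by a run of pyrimidines, the 5′ terminal oligopyrimidine (TOP) tract, through which the kinase mTORC1 and the protein Larp1 control their translation. RefSeq start sites on GRCm38.p6 were matched by symbol for 59 of the 80 members. At the annotated first base, 13 of these 59 (22.0%) had a C followed by 4 pyrimidines, read on the strand of the gene, against 3.01% of 27025 genes with a start site in that table. A run of at least 8 pyrimidines within 20 bases of the start, a broader definition chosen after seeing the data, was present in 28 of them (47.5%), against 18.4% of all genes. A start annotated a few bases away from the true one misses the tract, so these are matches of letters at annotated starts only. The sequences below run from 15 bases before the first annotated base to 14 after it, 5′ to 3′, with the pyrimidine run at the start, or otherwise the longest run of 5 or more, in capitals. They were chosen after their values were seen, to show 5 members with the tract and 3 without it, and are not a sample of the members. Among the 8 are members described below with low (Rplp2, Rpl37a, Rpl41), intermediate (Rps6, Rps27) and positive (Rpl31) fold changes in naive mice. Rpl38 and Rps21 had log2 fold changes of -0.70 ± 0.45 (q = 0.207) and -0.67 ± 0.20 (q = 0.278) there in the authors' deposited table.
Rplp2: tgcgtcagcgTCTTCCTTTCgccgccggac
Rps6: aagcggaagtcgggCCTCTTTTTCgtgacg
Rpl38: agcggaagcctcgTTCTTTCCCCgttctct
Rps21: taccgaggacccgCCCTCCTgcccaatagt
Rps27: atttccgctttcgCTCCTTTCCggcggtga
Rpl31: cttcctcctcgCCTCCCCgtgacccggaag
Rpl37a: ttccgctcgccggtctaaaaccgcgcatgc
Rpl41: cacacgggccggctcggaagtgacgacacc
The first 5 have the tract at the annotated start. They lie at chr7:141447636-141447665 on the plus strand (Rplp2), chr4:86857353-86857382 on the minus strand (Rps6), chr11:114668565-114668594 on the plus strand (Rpl38), chr2:180257364-180257393 on the plus strand (Rps21, the first of its 2 annotated starts) and chr3:90213634-90213663 on the minus strand (Rps27). Rpl31, at chr1:39367836-39367865 on the plus strand, has a run of 7 pyrimidines across the start that ends too soon after it to meet the definition. Rpl37a, at chr1:72711245-72711274 on the plus strand, and Rpl41, at chr10:128549154-128549183 on the minus strand, have no run of 5 in this window.

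Naive mice were compared by genotype label, without injury or drug. Most members were lower in the group labelled knockout. The log2 fold change was below 0 for 70 of the 78 tested members, against 52.7% of all genes tested. The member median was -0.44 against -0.03 for all genes. At 10 FPKM or more in both groups the medians were -0.43 for 77 members and -0.08 for 7398 genes tested. In tissue RNA fewer cells that express a gene and less of its RNA per cell cannot be told apart. By the authors' q, 1 member was called lower and 0 were called higher, against 1.11% and 0.334% of all genes tested. At an unadjusted p under 0.05, 24 members were lower and 0 higher, against 6.37% and 3.13% of all genes tested. The called member was Rpl37a, a zinc-binding protein of the large subunit, which fell from 703 to 336 FPKM (log2 fold change -1.06 ± 0.31, q = 0.0304 in the authors' deposited table). With a normal p from the deposited test statistic, adjusted over all genes, Rpl37a was not called and Rpl36 was. The members' own standard errors had a median of 0.43, about the size of the median change.

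Injury in mice labelled wild type gave a like picture from the same naive group. After injury with saline 72 of 78 tested members had a log2 fold change below 0, against 52.6% of all genes tested. The member median was -0.43 against -0.03. At 10 FPKM or more in both groups the medians were -0.44 for 77 members and -0.10 for 7474 genes tested. The authors' q called 3 members lower and 0 higher, against 1.06% and 0.361% of all genes tested. At an unadjusted p under 0.05, 27 were lower and 0 higher, against 6.32% and 2.62%. The 3 were Rpl37a, which fell from 718 to 327 FPKM (log2 fold change -1.13 ± 0.32, q = 0.0258 in the authors' deposited table), Rpl36 and Rplp2. Rpl36, a short basic protein of the large subunit, fell from 719 to 349 FPKM (log2 fold change -1.04 ± 0.21, q = 0.0327 in the authors' deposited table). Rplp2 fell from 1035 to 474 FPKM (log2 fold change -1.13 ± 0.52, q = 0.0481 in the authors' deposited table), but was no longer called when p was adjusted over all 7 tables or over genes of at least 1 FPKM. With the normal p, Rpl36 was called and neither Rpl37a nor Rplp2.

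**Figure D2:**
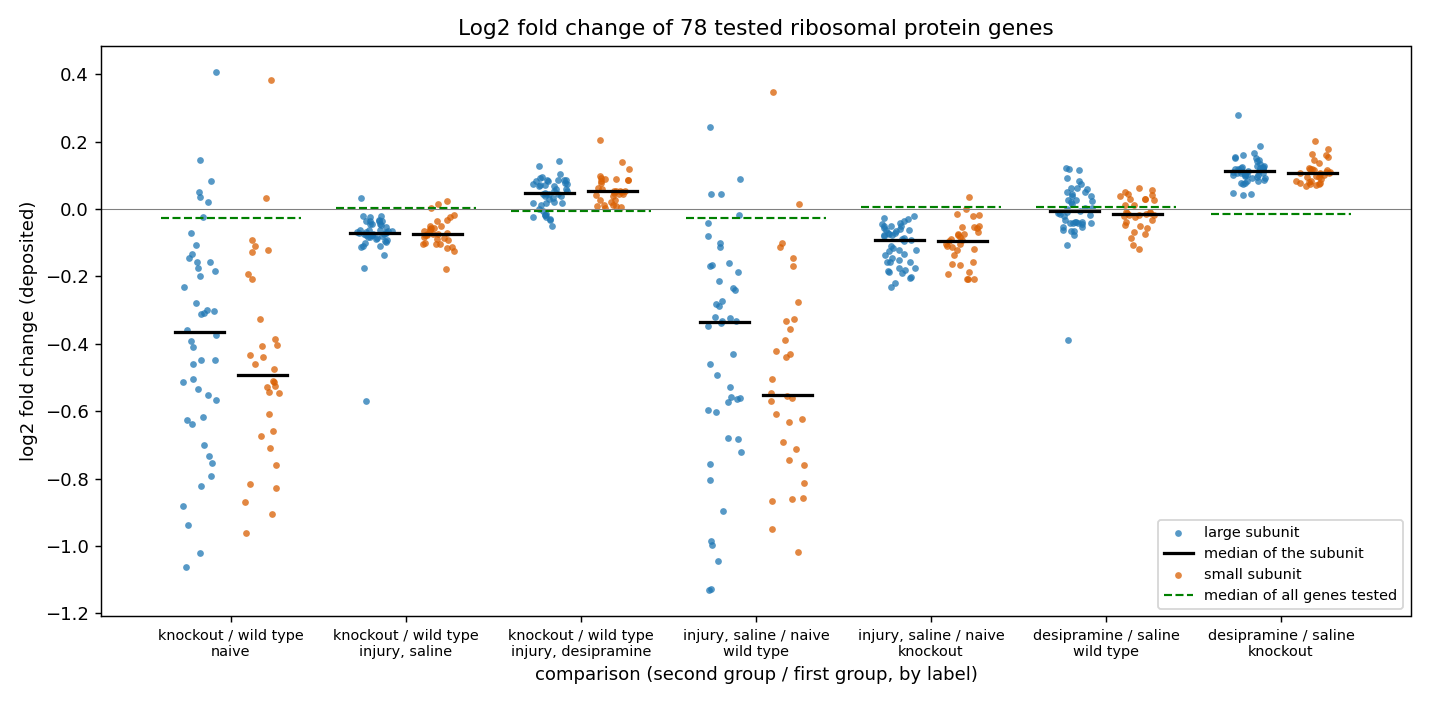
Deposited log2 fold change (second group over first, named by label) of the 78 tested ribosomal protein genes in the 7 comparisons; each point is 1 gene, large subunit blue and small subunit orange, black bars are the medians of each subunit and green dashes the medians of all genes tested. In the 2 comparisons with the naive group labelled wild type the points spread from -1.13 to 0.41, and in the other 5 most lie within 0.2 of 0.

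In small subunit genes the lowest log2 fold changes in both tables were about -1, with none called. Rps15 had 2104 FPKM before and 1040.0 FPKM after injury in mice labelled wild type (log2 fold change -1.02 ± 0.54, q = 0.1005 in the authors' deposited table). Rps24, one of the genes mutated in Diamond-Blackfan anaemia, had log2 fold changes of -0.87 ± 0.46 in naive mice (q = 0.0870) and -0.86 ± 0.46 after injury (q = 0.124) in the authors' deposited tables. Rps24 was lower in both comparisons by nearly the same amount. Rps6, the member that S6 kinases phosphorylate downstream of mTORC1, had smaller log2 fold changes of -0.33 ± 0.45 and -0.33 ± 0.46 in the authors' deposited tables (q = 0.838 and 0.877). Rps4x, which lies on the X chromosome, had -0.41 ± 0.46 and -0.36 ± 0.46.

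Rps7 differed less between the groups, with 209.5 FPKM in naive mice labelled wild type and 203 to 218 FPKM in the other 5. Rps27l, with log2 fold changes of -0.13 ± 0.52 and -0.11 ± 0.53 in the authors' deposited tables, did not have the fold changes of its parent Rps27 (-0.47 ± 0.17 and -0.50 ± 0.17), though no test compared them.

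In the stalk of the large subunit the 3 proteins did not have equal fold changes. Rplp1 had 3347 FPKM in naive mice labelled wild type and 1655 to 1928 FPKM in the other 5 groups, and its log2 fold changes, from the authors' deposited tables, were -0.79 ± 0.29 in naive mice (q = 0.290) and -0.98 ± 0.29 after injury (q = 0.135). Rplp2 had 1037 FPKM there against 465 to 510.1 FPKM elsewhere, and in naive mice its log2 fold change was -1.02 ± 0.51 (q = 0.0893 in the authors' deposited table). Rplp0, the protein that anchors both to the ribosomal RNA, had 204 FPKM there and 174 to 195 FPKM elsewhere, with log2 fold changes of -0.07 ± 0.45 and -0.16 ± 0.47 in the authors' deposited tables. Whether the 3 differ from one another was not tested.

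Elsewhere in the large subunit, Rpl36 missed the call in naive mice, at a log2 fold change of -0.94 ± 0.20 (q = 0.0665 in the authors' deposited table). Rpl41, a very short basic peptide, had 1648 FPKM in naive mice labelled wild type and 817 to 899 FPKM in the other 5, with q of 0.148 and 0.0905 in the authors' deposited tables of naive mice and of injury. Rpl39, which lines the exit tunnel, had -0.73 ± 0.25 and -0.72 ± 0.26. At the other end, Rpl31, a protein beside that tunnel's exit, had 242 FPKM in naive mice labelled wild type and 278 to 320 FPKM in the other 5 groups, with log2 fold changes of 0.41 ± 0.38 (q = 0.770) and 0.24 ± 0.38 in the authors' deposited tables. Rpl5, which carries the ribosome's smallest RNA into the large subunit, had 0.14 ± 0.49 in naive mice, and Rpl10, one of the last proteins to join it, had 0.09 ± 0.29 after injury. Rpl22, an RNA-binding member, had -0.46 ± 0.55 and -0.49 ± 0.57, near the member median.

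Both subunits had negative medians in these tables. In naive mice the median log2 fold change was -0.37 for 46 tested large subunit genes and -0.49 for 32 small subunit genes, and after injury in mice labelled wild type it was -0.33 and -0.55. The small subunit median was thus lower by 0.13 and 0.22, a description of the members with no test. In the other 5 comparisons the 2 medians differed by less than 0.01. The small subunit held 48.6% of the members' summed FPKM in naive mice labelled wild type and 47.5 to 47.8% in the other groups.

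Taking all members together, their share of the summed FPKM of all genes was 7.14% and 7.15% for the naive group labelled wild type in its 2 tables. It was lowest after injury with saline in mice labelled knockout, at 5.67%, and 6.24% in the injured, desipramine-treated group labelled knockout, the highest of the rest. The naive group labelled wild type also had a higher sum over all genes, 648632 and 660678 FPKM against 521317 to 543240 FPKM in the other groups. A share of summed FPKM depends on every other gene.

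**Figure D3:**
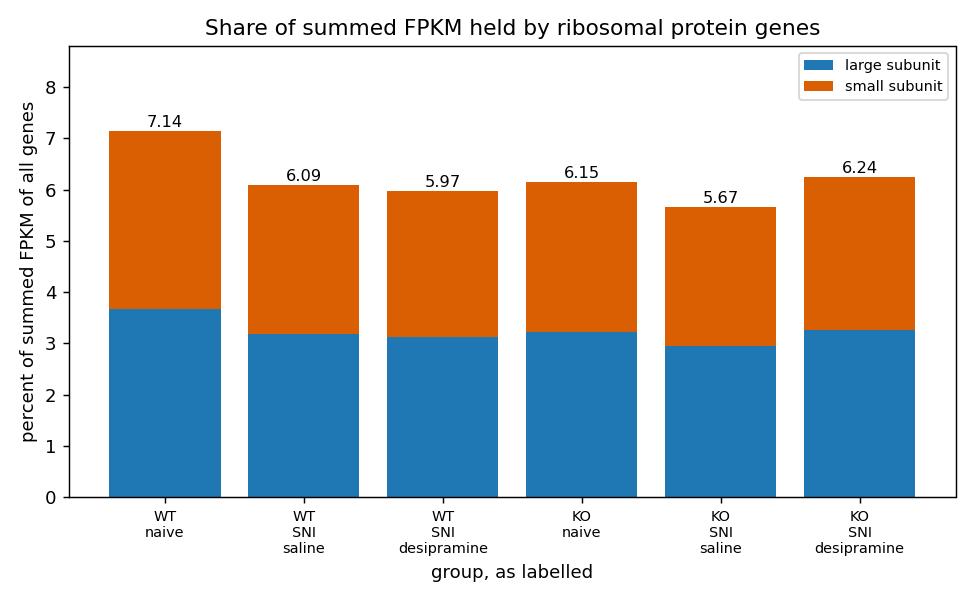
Percent of the summed FPKM of all genes held by the ribosomal protein genes in each of the 6 groups, named by label, with the large subunit in blue and the small subunit in orange; bars start at 0 and have no error bars since 1 value per group is given. The naive group labelled wild type has 7.14%, and the other 5 groups have 5.67 to 6.24%.

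Other measures moved with the naive group labelled wild type. Markers of cortical excitatory neurons, of which 7 of 7 were found and 0 were at 0 FPKM, had a summed level of 283 to 287 FPKM there and 57.1 to 110.4 FPKM in the other 5 groups. All 7 were called lower in both comparisons that use this group, and 3 were called lower for desipramine in mice labelled knockout. In the comparison of genotype labels after desipramine 3 were called lower, and 1 was called higher both for injury in mice labelled knockout and for desipramine in mice labelled wild type. Choroid plexus markers, 7 of 7 found and 0 at 0 FPKM, had 1405 to 1427 FPKM there and 18.1 to 658 FPKM elsewhere, and red blood cell markers, 5 of 5 found and 0 at 0, had 286 to 291 FPKM against 115 to 164 FPKM. In naive mice by genotype label 0 markers of either list were called, and after injury in mice labelled wild type 7 and 3 were called lower. Choroid plexus markers were also called higher in mice labelled knockout after saline (6 of 7) and after desipramine (7 of 7). Of the medium spiny neuron markers 3 were called higher in naive mice by knockout label and 4 lower after injury under that label. Markers of microglia had 69.6 to 77.7 FPKM over all groups, and those of endothelium 44.8 to 45.7 FPKM in that group and 35.6 to 47.3 FPKM elsewhere. Those of astrocytes had 265 to 270 FPKM in that group and 299 to 359 FPKM elsewhere, and those of oligodendrocytes 2512 to 2557 FPKM against 2675 to 3107 FPKM. The part of these in the members' fold changes was not tested.

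Coding length moved with the members' fold changes, over the widest range in the same 2 comparisons. Among the 77 members of at least 10 FPKM in both groups, the 10 with a coding length of up to 300 nucleotides had a median log2 fold change of -0.67 in naive mice, and the 27 of 300 to 450 nucleotides had -0.51. The 19 of 450 to 600 had -0.44, the 18 of 600 to 900 had -0.36 and the 3 longest had -0.13. Protein-coding genes outside the list had medians in the same order, from -0.40 for 199 genes of up to 300 nucleotides to 0.11 for 810 genes of over 3000. After injury in mice labelled wild type the member medians ran from -0.73 to -0.16 and those of other genes from -0.40 to 0.05. In each bin the member median was below that of other genes of the bin, a difference that was not tested. Spearman's rho between coding length and log2 fold change over members was 0.38 and 0.41 (n = 77 members) and over other genes 0.34 and 0.31 (n = 6995 and 7074). Injury in mice labelled knockout had the same order within a narrower range, with member medians from -0.12 for the shortest bin to -0.05 for the longest and a rho of 0.25 over members and 0.05 over other genes. In the other 4 comparisons rho was -0.09 (genotype labels after saline), 0.21 (genotype labels after desipramine), -0.22 (desipramine, labelled wild type) and 0.04 (desipramine, labelled knockout) over members, against 0.15, -0.22, 0.13 and -0.27 over other genes. Genes of 1 library share its depth and processing, so these values describe the libraries only. Rpl31, with a coding length of 375 nucleotides, and Rps27l, with 252, are among the short genes that did not follow this order.

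**Figure D4:**
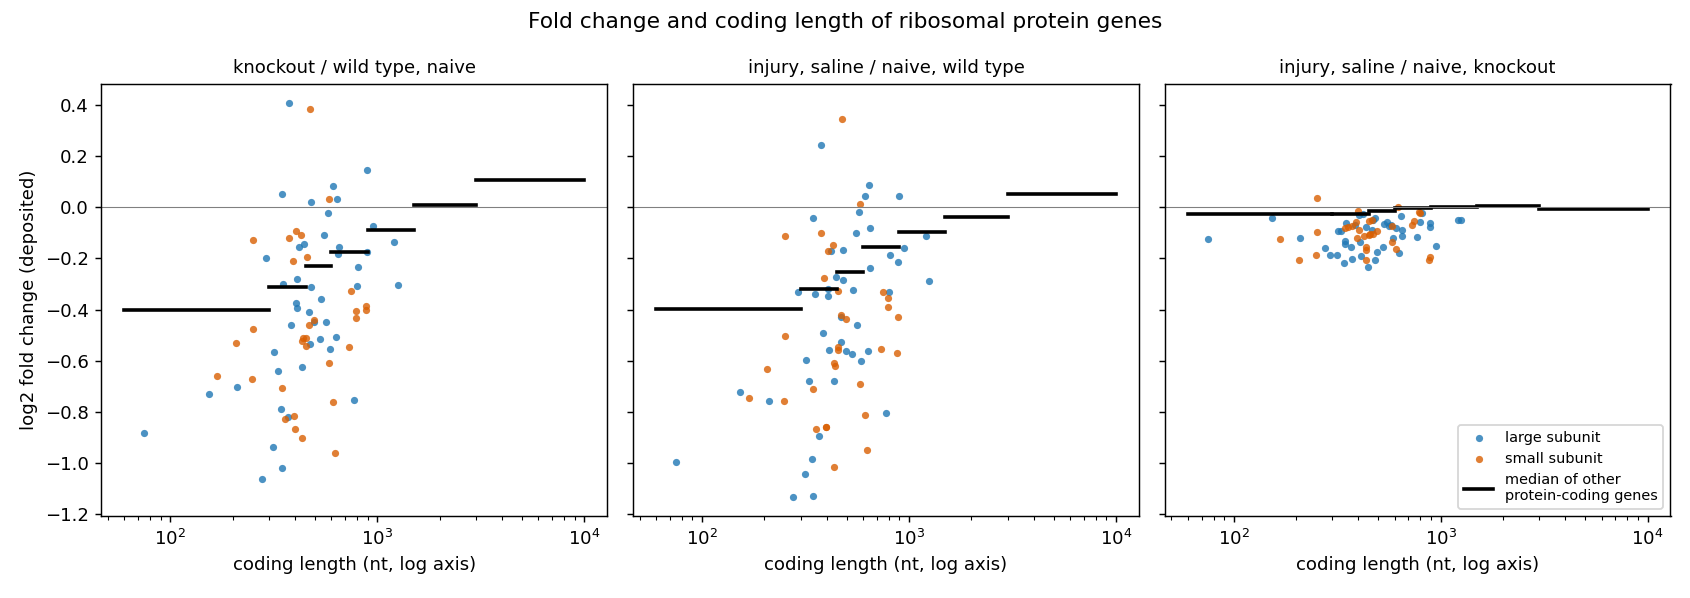
Deposited log2 fold change against coding length in nucleotides (log axis) for the 77 ribosomal protein genes of at least 10 FPKM, in naive mice by genotype label, after injury in mice labelled wild type and after injury in mice labelled knockout; points are genes by subunit and black bars the medians of other protein-coding genes in each length bin. In the first 2 panels, which share the naive group labelled wild type, shorter genes lie lower, and in the third all members lie between -0.23 and 0.04.

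Members of higher level also lay lower in these 2 tables. They were split by their level in the comparison of genotype labels after desipramine, which shares no group with either. The 38 members above the middle (366 FPKM) had a median log2 fold change of -0.53 in naive mice and the 39 others -0.38. After injury in mice labelled wild type the values were -0.57 and -0.36. Among members of at least 10 FPKM, those with the TOP tract at the annotated start had a median of -0.44 in naive mice (n = 13) and those with a start site but no tract -0.41 (n = 43), which was not tested.

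The other 5 comparisons do not use naive mice labelled wild type. In each of them Cuffdiff's q called 0 of 78 members and 0 had an unadjusted p under 0.05. Rpl3l, below 1 FPKM in every group, is left out of the extremes given for them. After injury with saline, the genotype labels gave a member median log2 fold change of -0.07 against 0.00 for all genes, with 74 members below 0 against 49% of genes tested. In that comparison 0.329% of all genes were called and 2.9% had an unadjusted p under 0.05. The lowest were Rpsa at -0.18 ± 0.23, a small subunit protein known also as a laminin receptor precursor, Rpl14 at -0.17 ± 0.25 and Rpl13 at -0.14 ± 2.18 in the authors' deposited table. The highest were Rpl5 at 0.03 ± 0.31, Rps18 at 0.02 ± 0.19 and Rps27l at 0.01 ± 0.36.

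After injury with desipramine the genotype labels gave a member median of 0.05 against -0.01 for all genes, with 69 members above 0 against 48.1% of genes tested, with 0.859% of all genes called and 5.58% under an unadjusted p of 0.05. Rps27l (0.21 ± 0.28), Rpl5 (0.14 ± 0.29) and Rps15a (0.14 ± 0.37) were highest, and Rplp1 (-0.05 ± 0.11), Rpl18 (-0.03 ± 0.23) and Rpl28 (-0.03 ± 0.18) lowest in the authors' deposited table. All 32 small subunit genes lay above 0.

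Injury in mice labelled knockout gave a median of -0.09 against 0.01 for all genes, with 76 members below 0 against 48.4% of genes tested. Over all genes 0.459% were called and 4.41% had an unadjusted p under 0.05. Rpl27a had the lowest log2 fold change (-0.23 ± 0.20, from 247 to 211 FPKM in the authors' deposited table), then Rplp1 (-0.22 ± 0.15) and Rps28 (-0.21 ± 0.16). Rps27l (0.04 ± 0.34) and Rps24 (-0.01 ± 0.23) were among the highest in the authors' deposited table. Rps24, among the lowest in mice labelled wild type, had here 654 FPKM before and 647 FPKM after injury.

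Desipramine in injured mice labelled wild type left the members near 0, with a median of -0.01 against 0.01 for all genes and 45 of 78 below 0 against 47.8% of genes tested. Over all genes 0.202% were called and 1.79% had an unadjusted p under 0.05. Rpl41 (0.12 ± 0.12), Rpl28 (0.12 ± 0.22) and Rplp1 (0.11 ± 0.13) were highest and Rps27l (-0.12 ± 0.32), Rpl14 (-0.11 ± 0.22) and Rps27a (-0.11 ± 0.15) lowest in the authors' deposited table. The GC content of the transcript moved with these small differences, with a Spearman's rho of 0.57 over 77 members and 0.58 over 7328 other protein-coding genes, a description of the same libraries and no test. Over members rho with GC content was -0.48 by genotype label after desipramine, -0.51 for injury in mice labelled knockout and 0.45 for desipramine in mice labelled knockout, against -0.38, -0.17 and 0.01 over other genes. It was -0.25 in naive mice, -0.32 for injury in mice labelled wild type and -0.07 by genotype label after saline, against -0.28, -0.39 and 0.13.

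In mice labelled knockout, desipramine gave the most uniform pattern. All 78 tested members had a log2 fold change above 0, against 45.6% of genes tested, with a median of 0.11 against -0.01 for all genes. Over all genes 1.05% were called and 4.37% had an unadjusted p under 0.05. The quartiles of the members were 0.09 and 0.12, against -0.11 and 0.08 for all genes. The highest were Rpsa (0.20 ± 0.22, from 174 to 200.5 FPKM), Rpl37 (0.19 ± 0.22) and Rps28 (0.18 ± 0.16), and the lowest Rpl5 (0.04 ± 0.30), Rpl3 (0.04 ± 0.26) and Rpl39 (0.05 ± 0.13) in the authors' deposited table. The median standard error of a member was 0.23, and members measured in the same libraries are not independent, so their common sign is not a test of the condition.

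Whether the responses differ between genotype labels was tested on the difference of log2 fold changes, adjusted over all genes. For injury, the member median was 0.37 higher in mice labelled knockout, with 67 of 77 members above 0 against 54.7% of 13633 genes. This difference uses the naive group labelled wild type. The member medians for injury were -0.43 under that label and -0.09 under the knockout label. Of the 77 members 0 passed the adjusted p, against 0.132% of genes. At an unadjusted normal p under 0.05 there were 9 members, against 1.62% of genes. Rpl36 had the smallest p, with a difference of 0.86 ± 0.24 (adjusted p = 0.1496, normal test across all genes from the authors' deposited tables), and for Rpl37a the difference was 0.97 ± 0.35. For desipramine the median difference was 0.11, 74 of 77 lay above 0 against 46.4% of 13827 genes, and 0 passed, against 0.145% of genes. There 0 members had an unadjusted p under 0.05, against 0.861% of genes.

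Rpsa has a copy listed as protein-coding, Rpsa-ps10, whose symbol marks a pseudogene. In the authors' deposited tables Rpsa-ps10 had 202 and 206 FPKM in naive mice labelled wild type, 71.0 and 71.5 FPKM in the naive group labelled knockout and 25.2 to 25.7 FPKM after injury with saline in mice labelled wild type. It had 59.8 and 59.9 FPKM after desipramine in mice labelled wild type, 66.5 to 67.5 FPKM after saline in mice labelled knockout and 54.8 to 55.3 FPKM after desipramine in those. The naive group labelled wild type was thus the highest and the injured, saline-treated group of the same label the lowest. Rpsa-ps10 was called in 4 tables, with log2 fold changes of -1.51 ± 0.38 in naive mice by genotype label (q = 0.00761), -3.03 ± 0.43 for injury in mice labelled wild type (q = 0.00766), 1.40 ± 0.25 by genotype label after saline (q = 0.0170) and 1.22 ± 0.22 for desipramine in mice labelled wild type (q = 0.0279) in the authors' deposited tables. Rpsa had 172 to 263 FPKM and was called in 0 tables. Reads of the pair may be split between the rows, so both are uncertain. Of 162 rows with a ribosomal pseudogene symbol, 55 are listed as protein-coding, and Rpsa-ps10 alone had at least 10 FPKM in each comparison.

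**Figure D5:**
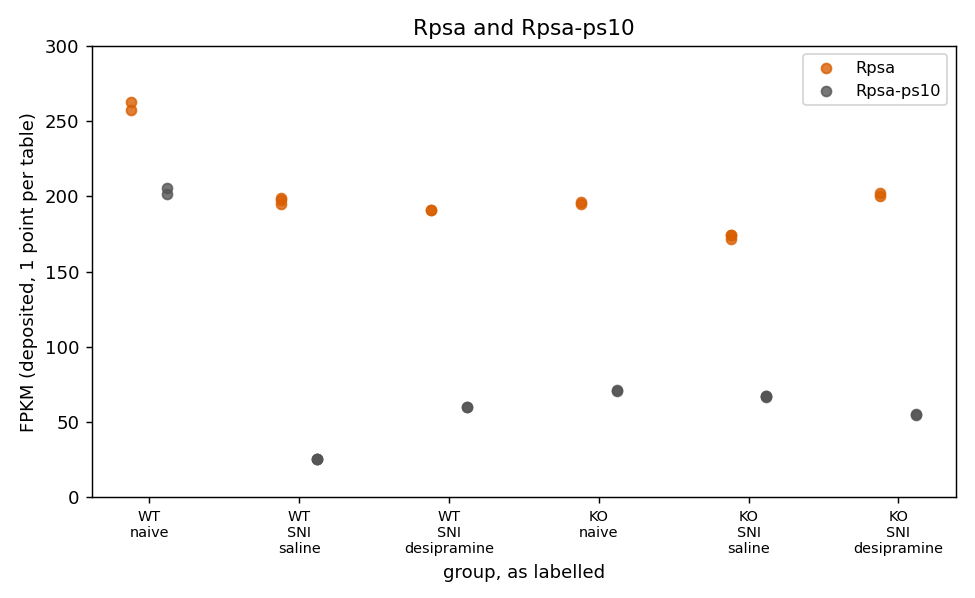
Deposited FPKM of Rpsa (orange) and of the pseudogene-named row Rpsa-ps10 (grey) in the 6 groups, named by label; each point is the authors' group value in 1 table, with no error. Rpsa stays between 172 and 263 FPKM while Rpsa-ps10 runs from 25.2 to 206 FPKM.

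Overlapping genes make other members uncertain too. The locus given for 42 members holds another gene, among them 29 with at least 1 snoRNA, the small guide RNAs whose genes sit in introns of ribosomal protein genes (57 in all), and 15 with another protein-coding gene. Rpl13 is the extreme, with 159 other genes in its listed locus. Its standard error was 3.63 log2 units for the difference of injury responses between genotype labels and 3.32 for that of desipramine responses. The row of Rpl24 carries an Ensembl identifier that GENCODE vM21 gives to its neighbour Zbtb11. The 35 members of at least 10 FPKM with no other gene in their locus had a median log2 fold change of -0.46 in naive mice and -0.50 after injury in mice labelled wild type, and the 42 others -0.42 and -0.43.

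In both comparisons with the naive group labelled wild type, lists of genes of related function also had medians below 0, by differing amounts. The exception was mTORC1 and translational control in naive mice. The 6 ribosomal proteins outside the name rule had medians of -0.44 in naive mice and -0.41 after injury in mice labelled wild type, with 0 called. Fau had 653 against 411 FPKM in naive mice (log2 fold change -0.67 ± 0.28, q = 0.249 in the authors' deposited table), and Rpl36al, a paralog of Rpl36a, 176 against 105 FPKM (-0.75 ± 0.43, q = 0.126). Of 22 elongation factors and other mRNAs of the TOP class, 0 were called, with medians of -0.24 and -0.20 and the lowest p in naive mice at Eif3k (-0.59 ± 0.45) and Naca (-0.62 ± 0.46) in the authors' deposited table. Eef1a1, which delivers the aminoacyl-tRNA and is a classic TOP mRNA, had 1849 against 2089 FPKM in naive mice (0.18 ± 0.64 in the authors' deposited table). Of 29 initiation factors, 1 was called lower in each of these tables: Eif6, which keeps the subunits apart until the large one is mature, fell from 73.0 to 31.3 FPKM in naive mice (log2 fold change -1.22 ± 0.38, q = 0.0242) and from 74.5 to 33.5 FPKM after injury (-1.15 ± 0.39, q = 0.0387) in the authors' deposited tables.

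Of 30 ribosome biogenesis genes, 0 were called in naive mice and 1 after injury in mice labelled wild type, with medians of -0.22 and -0.20. It was Polr1d, a subunit shared by the polymerases of ribosomal and transfer RNA genes, which fell from 64.3 to 33.4 FPKM (log2 fold change -0.94 ± 0.45, q = 0.0327 in the authors' deposited table). The 20 genes of mTORC1 and translational control had medians of 0.10 and -0.05 with 0 called. The 76 mitochondrial ribosomal proteins had medians of -0.40 and -0.39 with 0 called. Of them 14 and 16 were lower by an unadjusted p below 0.05, against 6.37% and 6.32% of all genes tested. The 73 tested nuclear genes of the respiratory chain had lower medians than the members, -0.55 and -0.62. Of these 4 and 9 were called lower, against 1.11% and 1.06% of all genes tested. Among them was Atp5e, a small subunit of ATP synthase, in naive mice (748 to 343 FPKM, log2 fold change -1.13 ± 0.49, q = 0.0134 in the authors' deposited table). In the other 5 comparisons 0 genes of these 7 lists were called, and the medians of the mitochondrial ribosomal list lay between 0.00 and 0.01 where those of the members lay between -0.09 and 0.11.

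The genes whose fold changes came nearest to the member medians over the 7 tables were sought among 6996 other protein-coding genes of at least 10 FPKM in every group, by the root mean square difference in log2 units. Pqbp1, whose protein binds polyglutamine tracts and takes part in splicing, was nearest with 0.0204, followed by Mrfap1 (0.0308), 1110004E09Rik (0.0308), Ube2s (0.0326), Ap4s1 (0.0327), Spcs1 (0.0365), U2af1 (0.0387), Gm16286 (0.0388), Tmbim6 (0.0398) and Zfp622 (0.0398). The members themselves had a median distance of 0.1297, from 0.0163 for Rps10 to 0.428, against a median of 0.245 over the candidates. Members set the medians that they are measured against, so a shorter distance is partly built in and is no test.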

How the data were processed

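Libraries were TruSeq RNA, from RNA purified by Trizol and RNeasy Micro, read on a HiSeq 2000, per the labels' protocols. The submitters' processing notes name the builds mm9 and NCBIM37, the aligners TopHat2 2.0.9 and Bowtie2 2.1.0, and Cuffdiff 2.1.1. For the annotation release and the options: not given in the sources used here. Deposited FPKM values are 1 per gene and group, scaled by the authors within each table. The deposited log2 fold change is the second group over the first. The deposited test statistic is a score, and each deposited p-value and q-value is Cuffdiff's own. A Benjamini-Hochberg adjustment within each table returns the deposited q.

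Standard errors are log2 fold changes divided by their test statistics. Cuffdiff's p does not come from a normal distribution of that statistic, so p and standard error need not match. Levels over the 6 groups use 1 factor per table, 0.986 to 1.02. Responses were compared by the difference of log2 fold changes divided by its standard error (both errors added in quadrature). The two-sided normal p was adjusted over all genes of at least 1 FPKM. This calculation was tried on simulated data with normal errors and planted differences larger than those of any member. Its power for differences of the members' size was not tested. Coding length and transcript GC content came from GENCODE vM21, and start sites from RefSeq (GRCm38.p6). Python 3.11.15 with pandas 2.3.3, numpy 2.4.6 and scipy 1.17.1 was used. The members and lists were chosen with earlier results of these data known. Named members are those called, the 3 highest and 3 lowest per comparison, the 5 highest and lowest levels, paralogs with their parents, Rpsa, Rplp0 to Rplp2 and Rps6; from other lists at most 3 called genes; and the 10 nearest genes. Others (Rps7, Rps24, Rpl38, Fau, Eef1a1, Rpsa-ps10) were named after their values were seen. Some members chosen by this rule are not reported here. Alternatives were other thresholds, filters, scalings and adjustments.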

Additional observations from a re-analysis of the deposited data

How the results depend on the processing

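The member medians kept the sign of the reported value in all 30 alternatives run, which were centring on the median of all genes, log2(FPKM + 1), members of at least 10 FPKM, no paralogs and, for both comparisons with the naive group labelled wild type, members alone in their locus. They ran from -0.47 to -0.41 in naive mice and from -0.50 to -0.41 after injury in mice labelled wild type. Counts of called members moved with the threshold. In naive mice 1 became 0 at a q of 0.01, 4 at a q of 0.1 (Rpl36, Rpl37a, Rplp2 and Rps24) and 24 at an unadjusted p under 0.05. A normal p there called Rpl36 in place of Rpl37a. After injury in mice labelled wild type 3 became 0 at a q of 0.01, 27 at an unadjusted p, and 1 (Rpl36) by a normal p, centred or not; the cause was not tested. The other 5 comparisons had 0 called in every alternative run. At the annotated first base 22.0% of the 59 members with a start site had the tract, against 3.01% of all genes. Under the broader definition, a run of at least 8 pyrimidines within 20 bases, the values were 47.5% and 18.4%.

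No paired analysis was possible because the tables hold no value of a single sample. For the same reason no replicate was left out in turn. Depth is unknown, so no counting limit is given, and Rpl10l at 0 FPKM is only listed at 0.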
